A study of Homo sapiens with 6 samples.

Results

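The receptors for GDNF, the neurotrophins and CNTF, taken as 10 listed genes (RET, GFRA1, GFRA2, GFRA3, NTRK2, NTRK3, NGFR, CNTFR, LIFR and IL6ST), were read out of 57820 genes in bulk RNA sequencing of human motor neurons under simulated microgravity (SMG) and at normal gravity (NG). All 10 were found by symbol and all 10 passed the filter on low counts, which kept 17803 genes. The members were listed by name, with no measured value in the rule, but they were chosen with earlier results of these data known. Both groups were wild-type motor neurons made from H9, an established human embryonic stem cell line, and their progenitors had been differentiated in neural culture medium with 0.01 µM RA and 0.1 µM SAG, an agonist of Hedgehog signalling. For the 3 SMG libraries the cells were rotated by a 2D clinostat, which keeps changing the direction of gravity relative to the culture, and the cells of the 3 NG libraries were not rotated. How long they were rotated was not given in the sources used here. All 6 libraries come from 1 cell line. The labels do not say whether they are separate cultures, and p-values then describe only the spread among the libraries, part of which may be technical.

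Trophic factors are secreted proteins that keep neurons alive and direct the growth of their axons, and motor neurons depend on several families of them. GDNF and its relatives bind a GFRα coreceptor held on the membrane by a lipid anchor, and the pair then engages the receptor tyrosine kinase RET. Neurotrophins bind the tyrosine kinases TrkB (NTRK2) and TrkC (NTRK3), and all of them also bind p75 (NGFR), a receptor of the TNF receptor family that can act with the Trk kinases or on its own. CNTF binds its own coreceptor (CNTFR), which recruits the signalling pair LIFR and gp130 (IL6ST), and these activate JAK kinases and STAT3.

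Total counts ran from 16329907 to 22685870 per library. Levels are in CPM, with each library's total adjusted by TMM, and differences are log2 fold changes, SMG minus NG, ± SE, from edgeR's quasi-likelihood test with p-values adjusted over all genes tested. Motor neuron markers were present (9 of 10 passed the filter), and so were those of progenitors (8 of 8), with NES at 1999 CPM and MKI67 at 310.04 CPM in NG. Summed motor neuron markers ran from 720 to 745 CPM in NG and from 905 to 944 in SMG. Of the 9 tested, 7 were higher and 0 lower, beside 17.3% and 18.5% of all genes tested. CHAT (0.08) and ISL2 (0.17) did not pass. SLC5A7 was the largest part of the sum (311 CPM in NG), and FOXP1 gained the most CPM (111 in NG, 181 in SMG). Of the 8 progenitor markers 1 was higher (NKX2-2, 0.38) and 2 were lower (OLIG2, -0.22, and PAX6, -0.20). Their sum, most of it NES, overlapped between the groups, at 2790 to 3029 and 2804 to 2978 CPM. In bulk RNA, fewer cells of a type and less RNA per cell cannot be told apart.

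RET and NGFR rose in SMG, and NTRK2 and IL6ST fell, each by less than 1.5-fold. RET was 1.36 times and NGFR 1.31 times as high as in NG, while NTRK2 was at 0.831 and IL6ST at 0.821 of the NG level. The other 6 receptors did not pass the test. Of the 10 members 2 were higher and 2 lower, beside 17.3% of all tested genes higher and 18.5% lower (35.8% in either direction), a share near the background. The groups did not overlap in 5 members, where 46.3% of all tested genes had no overlap. The median log2 fold change was 0.10 over the members and -0.00018 over all genes tested. RET passed and no GFRA gene did, NTRK2 passed and NTRK3 did not, and IL6ST passed while LIFR and CNTFR did not. Count ratios, given further on, compare such partners directly.

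**Figure D1:**
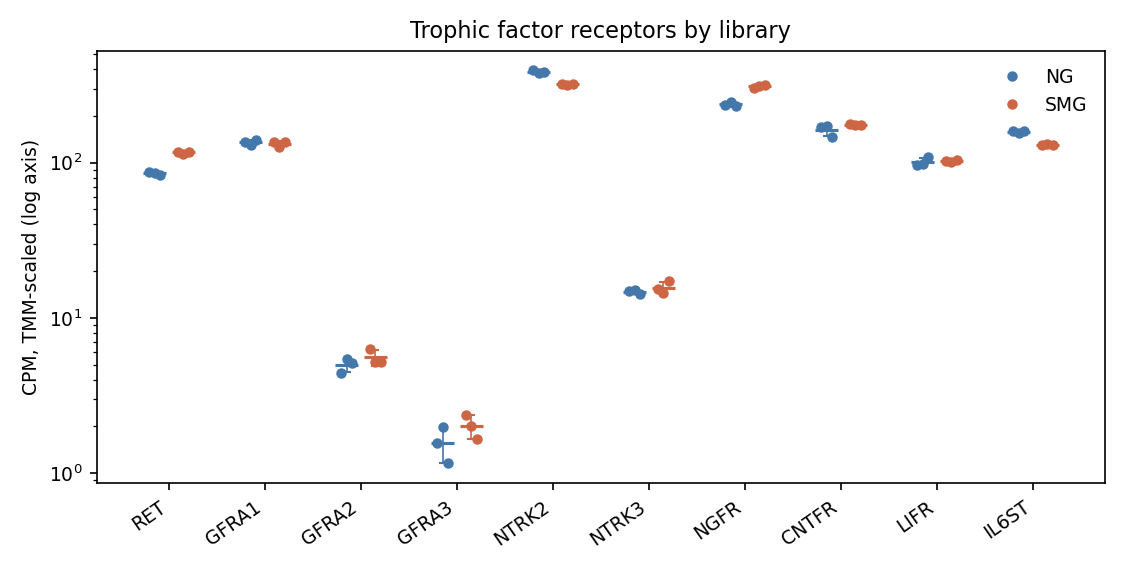
Level of each receptor in each library (CPM, log axis), NG in blue and SMG in orange; points are libraries, bars the mean and whiskers the SD of 3. RET and NGFR lie higher and NTRK2 and IL6ST lower in all 3 SMG libraries, while GFRA2 and GFRA3 sit lowest and overlap between the groups.

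RefSeq promoter windows (GRCh38.p14) matched 8 of the 10 members. The 250 bases before the most upstream listed start are shown for the receptors that passed the test and matched, so that the window of the one that rose (RET) can be read beside those of the ones that fell (NTRK2, IL6ST). RefSeq lists 2 windows for RET, 4 for NTRK2 and 1 for IL6ST, and gene counts do not show which start was used. Capitals mark matches, on either strand, to the GC box GGGCGG, the CCAAT box, the TATA box TATAAA, the core of the hypoxia response element ACGTG, the STAT site TTCNNNGAA and the cyclic AMP response element TGACGTCA. The windows are RET at chr10:43076819-43077068 (plus strand), NTRK2 at chr9:84669056-84669305 (plus strand) and IL6ST at chr5:55994964-55995213 (minus strand), each written 5′ to 3′ on the gene's strand.
RET: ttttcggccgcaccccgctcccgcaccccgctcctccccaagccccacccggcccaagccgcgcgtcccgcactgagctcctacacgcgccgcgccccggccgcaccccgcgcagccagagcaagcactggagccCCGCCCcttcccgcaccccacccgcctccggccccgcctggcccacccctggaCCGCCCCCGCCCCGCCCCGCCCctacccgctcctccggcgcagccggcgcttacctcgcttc
NTRK2: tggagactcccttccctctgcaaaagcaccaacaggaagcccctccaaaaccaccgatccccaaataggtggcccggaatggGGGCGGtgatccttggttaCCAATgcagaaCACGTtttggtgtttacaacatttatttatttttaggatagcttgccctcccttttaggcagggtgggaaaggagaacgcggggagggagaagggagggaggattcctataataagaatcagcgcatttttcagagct
IL6ST: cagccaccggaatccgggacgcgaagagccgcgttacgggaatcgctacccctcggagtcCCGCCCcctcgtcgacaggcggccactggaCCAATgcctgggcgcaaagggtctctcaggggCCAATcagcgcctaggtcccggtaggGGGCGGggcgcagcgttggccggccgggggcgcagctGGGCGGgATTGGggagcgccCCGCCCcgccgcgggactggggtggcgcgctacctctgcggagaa

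The RET window, at 79.6% G and C, held 5 GC boxes, 4 of them in 1 run where neighbours touch or share a base. The NTRK2 window, at 50% G and C, held 1 GC box, 1 CCAAT box and 1 ACGTG core. The IL6ST window, at 73.6% G and C, held 4 GC boxes and 3 CCAAT boxes. Of 35116 RefSeq windows of the same length, 42.6% held a GC box, 32% a CCAAT box and 18.5% an ACGTG core. The TATA box (10.7% of windows), the STAT site (6.57%) and the cyclic AMP response element (1.65%) had no match in the 3 windows shown. A match describes letters in the window and not a site that a factor binds.

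RET, the signalling kinase shared by all GDNF family ligands, was at 87.4, 86.1 and 82.7 CPM in NG and at 117, 114 and 118 CPM in SMG. Every SMG library lay above every NG library. The rise was 0.45 ± 0.04 on the log2 scale (n = 3 per group, edgeR adjusted p = 3.54e-10). It was 0.35 after each library's trend with transcript length and GC content was removed (adjusted p = 9.44e-10). RET rose together with the sum of the motor neuron markers given above, and their part in its rise was not tested.

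GFRA1, the preferred coreceptor of GDNF, was at 135.9, 130.5 and 139.8 CPM in NG and at 135.5, 126.8 and 135.9 CPM in SMG. The groups overlapped, and the difference was -0.03 ± 0.04 (edgeR adjusted p = 0.595), with a 95% interval from -0.11 to 0.05. That interval lies wholly below the one of RET, which ran from 0.37 to 0.53. GFRA2, the coreceptor of neurturin, had 4.43, 5.42 and 5.12 CPM in NG and 6.33, 5.16 and 5.21 CPM in SMG, which overlap, a difference of 0.17 ± 0.12 (edgeR adjusted p = 0.318). GFRA3, the coreceptor of artemin, was the lowest member in CPM, at 1.56, 1.97 and 1.16 in NG and 2.36, 2.02 and 1.66 under SMG. With 19 to 50 counts per library behind it, its difference of 0.36 ± 0.21 (edgeR adjusted p = 0.189) had a 95% interval from -0.07 to 0.79. That interval holds both 0 and the rise of RET.

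NTRK2 encodes TrkB, the kinase receptor for BDNF and NT-4, and had more CPM than any other member. It stood at 392, 377 and 386 CPM in NG and at 322, 315 and 322 CPM in SMG. All SMG libraries were below all NG libraries, and the fall was -0.27 ± 0.03 (n = 3 per group, edgeR adjusted p = 1.67e-07). With the trend in length and GC content removed the difference was -0.26. Counts are per gene, so full-length TrkB and its forms without a kinase domain, both made from NTRK2, cannot be told apart. Of the astrocyte and radial glia markers, 2 of 7 passed the filter and both were lower in SMG, FABP7 by -0.42 and SLC1A3 by -0.16. The other 5, AQP4 and GFAP among them, were below 1 CPM on average in both groups, and none was at 0 in every library. The sum of all 7 ran from 79.2 to 82.7 CPM in NG and from 64.9 to 68.8 in SMG, and its part in the fall of NTRK2 was not tested.

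NTRK3, which encodes TrkC, the receptor for NT-3, was at 14.9, 15.0 and 14.3 CPM in NG and at 15.4, 14.4 and 17.3 under SMG. The ranges overlapped, and the difference of 0.09 ± 0.08 did not pass (edgeR adjusted p = 0.419; 95% interval -0.08 to 0.25).

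NGFR encodes p75, which marks young motor neurons and binds every neurotrophin. Its level was 234, 246 and 231 CPM in NG and 303, 314 and 314 CPM in SMG, with no overlap. The rise was 0.39 ± 0.03 (n = 3 per group, edgeR adjusted p = 4.82e-10). Removal of the trend with length and GC content brought it to 0.22 (adjusted p = 2.55e-07). In GENCODE 29, genes on the other strand overlap NGFR: AC006487.1 over 4.87% of its exon length, with 22 to 48 counts per library, and AC015656.1 over 22.3%. Whether counting used strand was not given in the sources used here, and without it reads from those genes cannot be told apart from NGFR. NGFR, like RET, rose together with the sum of the motor neuron markers, whose part in its rise was not tested.

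CNTFR, the lipid-anchored coreceptor of CNTF, was at 170.4, 173 and 146 CPM in NG and at 177, 175 and 175 CPM in SMG. The groups did not overlap, though NG replicate 3 lay well below the other NG libraries. The difference of 0.10 ± 0.05 did not pass (edgeR adjusted p = 0.118). It passed without NG replicate 2 (0.14, adjusted p = 0.0205) and without a filter on low counts (0.11, adjusted p = 0.0212), fell to 0.03 without NG replicate 3 and turned to -0.0061 with the length and GC trend removed (adjusted p = 0.911).

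LIFR, the signalling subunit shared by LIF and CNTF, stood at 97.2, 97.7 and 108 CPM in NG and at 103, 101 and 104 CPM in SMG. The SMG values lay inside the NG range, and the difference was 0.03 ± 0.04 (edgeR adjusted p = 0.663; 95% interval -0.06 to 0.11). LIFR shares 5.3% of its exon length with LIFR-AS1 on the other strand, which had 53 to 86 counts per library. IL6ST encodes gp130, the signalling subunit of the whole IL-6 cytokine family. It was at 159.6, 156 and 159 CPM in NG and fell to 129, 131 and 129.6 CPM in SMG, with narrow and separate ranges. The fall was -0.28 ± 0.03 (n = 3 per group, edgeR adjusted p = 1.81e-07), and -0.23 with the trend removed. IL6ST shares 8.58% of its exon length with AC008914.1 on the other strand, which had 0 counts in every library.

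**Figure D2:**
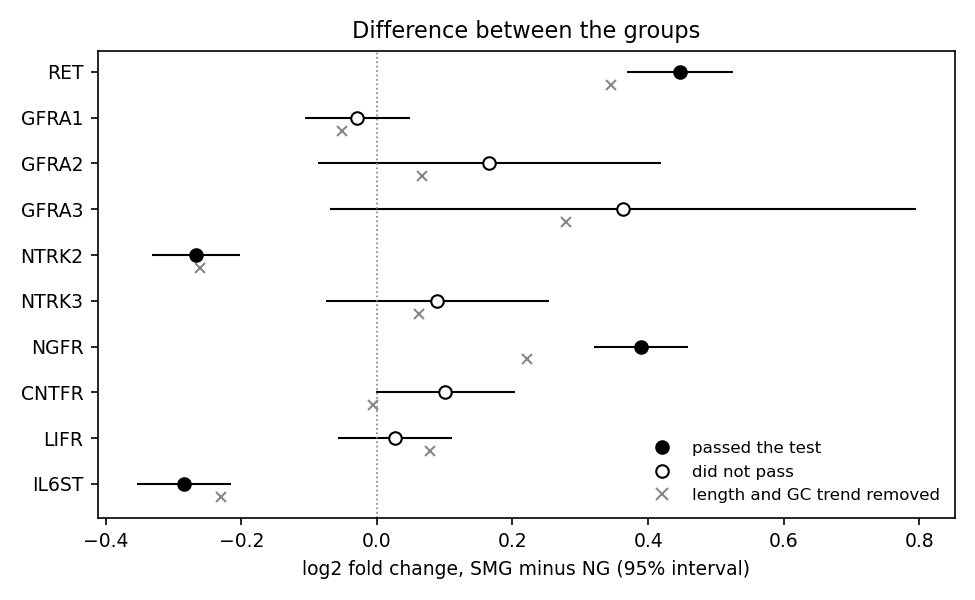
Log2 fold change of each receptor, SMG minus NG; circles are edgeR estimates (filled where the test was passed), lines their 95% intervals, and crosses the value after removal of the trend with transcript length and GC content. RET and NGFR lie to the right of 0 and NTRK2 and IL6ST to the left in both forms, and CNTFR is the member whose sign turned when the trend was removed.

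The fitted trend alone, from length and GC content, came to 0.17 for NGFR, 0.11 for CNTFR, RET and GFRA2, 0.09 for GFRA3, and between -0.05 and 0.03 for the other 5 members. It was largest for NGFR and near 0 for NTRK2 (-0.0010). Since the trend was removed as an offset, each difference moved by about its fitted trend by construction.

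Levels of different receptors were compared per kilobase, with the summed exon length or the longest transcript of GENCODE 29 as the length. The annotation behind the deposited counts was not given in the sources used here, and the order of some members depended on the length. In NG, CNTFR had the highest level (77.4 ± 7.02 CPM per kilobase of exon, SD, n = 3) and NGFR the next (57.1 ± 1.84), followed by NTRK2 (18.9 ± 0.38) and IL6ST (17.0 ± 0.20). With the longest transcript as the length NTRK2 came to 44.6, since its exons add up to 20363 bases and its longest transcript has 8633. The CNTFR and NGFR ranges did not overlap in NG with summed exons, but with the longest transcript CNTFR (71.3 to 84.5) and NGFR (67.6 to 71.9) did. In SMG, CNTFR was above NGFR with summed exons (83.1 against 74.8) and below it with the longest transcript (85.5 against 90.8).

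RET and GFRA1 were close, at 12.4 and 14.0 CPM per kilobase of exon in NG, and changed places with the length used (15.1 and 14.7 with the longest transcript, where their ranges overlapped). In SMG RET was above GFRA1 with either length, at 16.9 against 13.7 and at 20.6 against 14.4. LIFR was lower, at 8.51 CPM per kilobase of exon in NG. GFRA2 (0.873), GFRA3 (0.766) and NTRK3 (0.551) were the lowest in NG, and the ranges of GFRA2 and GFRA3 overlapped.

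Within a library, the ratio of 2 receptors' counts does not depend on the scaling. It still holds the trend with length and GC content, which was not removed here. That trend was 0.17 for NGFR, 0.11 for RET and CNTFR, -0.05 for IL6ST and -0.0010 for NTRK2. For 8 pairs of receptors that act in the same or related complexes, picked after the counts had been seen, ratios were compared by an exact permutation test, two-sided. With 3 libraries against 3 its smallest possible p is 0.1, so no pair could pass at 0.05. Each shift also follows from the fold changes of its 2 receptors given above, so the ratios are not separate evidence. NGFR to NTRK2 had the largest shift of the 8, from 0.597, 0.651 and 0.598 in NG to 0.941, 0.995 and 0.974 in SMG, a difference of 0.66 on the log2 scale (exact p = 0.1, adjusted 0.133). RET to GFRA1 went from 0.643, 0.660 and 0.591 in NG to 0.867, 0.902 and 0.866 under SMG (0.48, exact p = 0.1, adjusted 0.133). Each was higher in 3 of 3 SMG libraries than in any NG library.

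LIFR to IL6ST went from 0.609, 0.625 and 0.679 to 0.798, 0.769 and 0.804 (0.31), and CNTFR to IL6ST shifted by 0.39, both without overlap and both with exact p = 0.1 (adjusted 0.133). CNTFR to LIFR overlapped between the groups (0.08, exact p = 1), as did RET to GFRA2 (0.29, exact p = 0.2, adjusted 0.229). NGFR to NTRK3 (0.30) and NTRK3 to NTRK2 (0.35) did not overlap (exact p = 0.1 each).

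**Figure D3:**
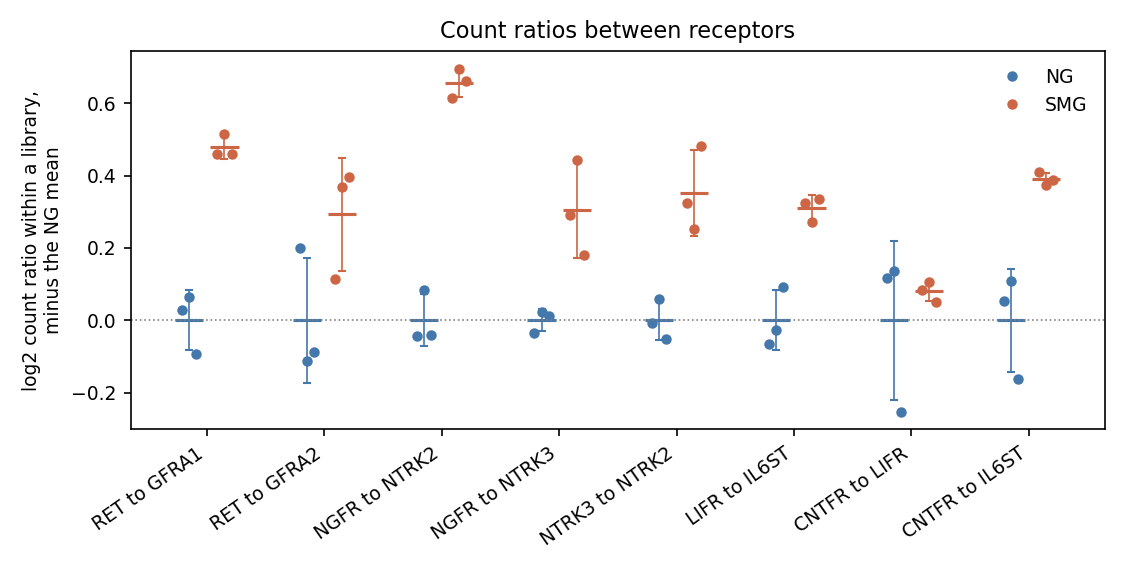
Ratio of 2 receptors' counts within each library on the log2 scale, minus the mean of the NG libraries; points are libraries, bars the mean and whiskers the SD of 3. The SMG libraries (orange) lie above all NG libraries (blue) for 6 of the 8 pairs, and overlap with them for RET to GFRA2 and CNTFR to LIFR.

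The ligands of these receptors were mostly weakly expressed. A list of GDNF family ligands and GDF15 had 2 higher and 0 lower of 3 tested (artemin, persephin and GDF15). Neurotrophins had 0 higher and 1 lower of 3, and CNTF and LIF cytokines 0 higher and 1 lower of 6. Across all genes tested 17.3% were higher and 18.5% lower. The median was 0.47 over the first list, GDF15 included, and -0.11 over the cytokines. NTF3, which encodes NT-3, was the highest of the 12 that passed the filter, and it fell from 17.9, 18.2 and 15.8 CPM in NG to 13.1, 14.3 and 12.8 under SMG (-0.37 ± 0.08, edgeR adjusted p = 5.10e-04). The groups did not overlap. LIF, the ligand of LIFR and gp130, fell from 2.31 ± 0.63 to 1.36 ± 0.08 CPM (SD, n = 3; -0.73 ± 0.21, edgeR adjusted p = 0.00790). It did not pass without NG replicate 2 (-0.54, adjusted p = 0.0740) or with DESeq2 (adjusted p = 0.0584).

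Of the GDNF family, artemin (ARTN) was higher in SMG, at 0.438 ± 0.075 CPM in NG and 0.905 ± 0.111 under SMG (1.01 ± 0.32, edgeR adjusted p = 0.0145). Persephin (PSPN) was higher too, at 3.88 ± 1.23 and 5.29 ± 0.26 CPM, though its groups overlapped (0.47 ± 0.15, edgeR adjusted p = 0.0199). With the length and GC trend removed neither passed (adjusted p = 0.0510 for ARTN and 0.0707 for PSPN). ARTN also lost its call without NG replicate 2 (adjusted p = 0.0527) or SMG replicate 2 (0.0670), and PSPN with DESeq2 (0.0903) and without NG replicate 1 (0.162), NG replicate 3 (0.0661), SMG replicate 2 (0.0671) or SMG replicate 3 (0.0790). Without NG replicate 2, where PSPN was highest of the NG libraries, its difference was 0.74. GDNF itself did not pass the filter, with 0.0610 to 0.308 CPM over all libraries, and neither did neurturin (NRTN, 0.185 to 0.427 CPM).

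BDNF had 1.17 ± 0.05 CPM in NG and 1.08 ± 0.31 under SMG (-0.13 ± 0.25, edgeR adjusted p = 0.739). CNTF had 1.02 ± 0.18 and 1.42 ± 0.33 CPM (0.45 ± 0.25, adjusted p = 0.165), and its exons overlap those of the readthrough gene ZFP91-CNTF, so its value is uncertain. The cytokine CLCF1, a further ligand of the CNTF receptor, was at 2.63 ± 0.34 and 2.93 ± 0.74 CPM (adjusted p = 0.503). CTF1 and IL11 were below 1 CPM and did not pass. GDF15 had 1.55 ± 0.31 and 1.02 ± 0.27 CPM (-0.59 ± 0.25, adjusted p = 0.0632), and passed with the trend removed (-0.67, adjusted p = 0.0377), without NG replicate 1 (0.0407) and without SMG replicate 1 (0.0388).

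**Figure D4:**
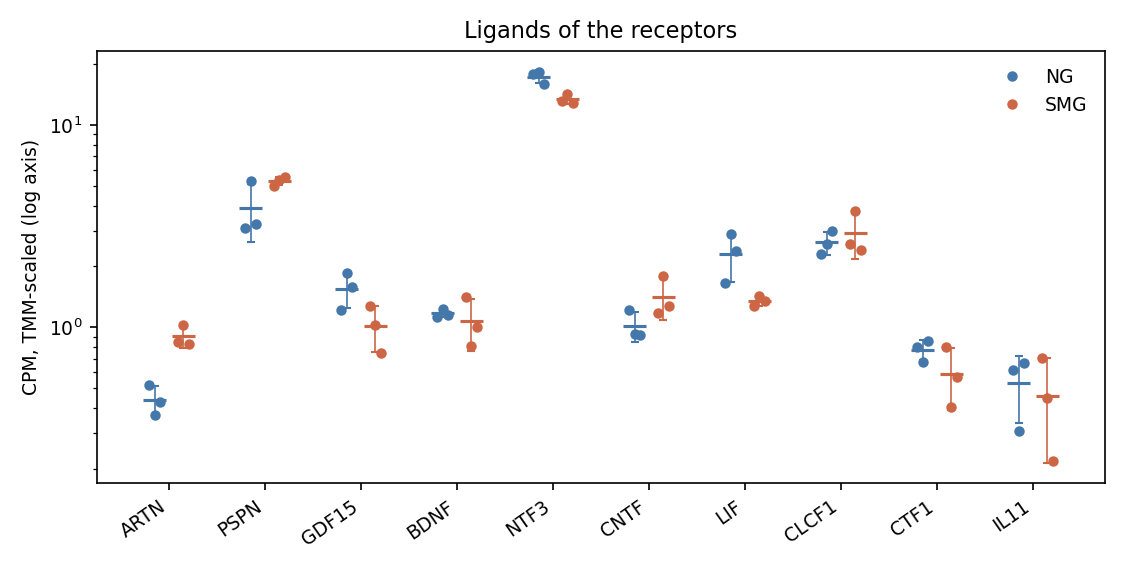
Level of 10 ligand genes that passed the filter in each library (CPM, log axis), NG in blue and SMG in orange; points are libraries, bars the mean and whiskers the SD of 3. NTF3 lies well above the other ligands and is lower in SMG, and most ligands are near 1 CPM with overlapping groups.

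A list of other receptors, coreceptors and partners in these and neighbouring trophic systems had 4 higher and 2 lower of 13 tested (median 0.12, or 0.0098 with the trend removed). Over all genes tested the shares were 17.3% and 18.5%. PTPRS, a receptor phosphatase that binds TrkC, rose from 535 ± 25.8 to 677 ± 11.2 CPM (0.34 ± 0.03, edgeR adjusted p = 8.22e-09), or by 0.12 with the trend removed. NCAM1, an adhesion molecule that can also bind GDNF with GFRA1, rose from 1206 ± 13.0 to 1308 ± 8.96 CPM (0.12 ± 0.03), and the neuregulin receptor ERBB4 by 0.16 ± 0.04, to 77.4 ± 2.04 CPM in SMG. LINGO1, a partner of p75 in the Nogo receptor complex, rose by 0.18 ± 0.04 (edgeR adjusted p = 0.00120) but was at 0.03 with the trend removed (adjusted p = 0.588).

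In that list 2 receptors fell: the HGF receptor MET, from 62.4 ± 1.94 to 54.7 ± 1.25 CPM (-0.19 ± 0.05), and SORCS3, of the sortilin family, from 57.0 ± 1.22 to 50.2 ± 2.18 CPM (-0.18 ± 0.05). Sortilin itself (SORT1), which binds proneurotrophins together with p75, was at 180.0 ± 4.62 and 183 ± 2.99 CPM (0.02 ± 0.03, adjusted p = 0.629). SORCS1, SORCS2, RTN4R, IL11RA and IL27RA did not pass, with differences from -0.22 to 0.17, though RTN4R passed without NG replicate 2 (0.32, adjusted p = 0.0284). GFRA4, GFRAL, IL6R and OSMR did not pass the filter on low counts.

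Over the 10 pathway lists together, 121 of 134 genes were tested, 35 higher and 25 lower, beside 17.3% and 18.5% of all genes tested. With the trend in length and GC content removed the split was 25 higher and 28 lower. Over all 121 the median was 0.01 and the mean -0.01. Without strand, counts of MAP2K1, PDPK1, ARHGDIA and DUSP6 may include reads of genes that overlap them on the other strand. Those genes had 4 to 14 and 183 to 276 counts per library for MAP2K1, 0 and 7 to 13 for PDPK1, and 0 for ARHGDIA. AC024909.2, which overlaps 40.5% of the exon length of DUSP6, had no entry in the deposited counts. On the same strand, IL11RA shares 7.82% of its exon length with GALT, which had 351 to 521 counts per library. Adaptors that dock on RET and the Trk kinases had 8 higher and 3 lower of 25 (median 0.04). SH2B2, an adaptor of the SH2B family, rose from 9.56 ± 1.26 to 14.0 ± 1.37 CPM (0.54 ± 0.10, edgeR adjusted p = 7.93e-05). RAPGEF1, an exchange factor for Rap1, was higher by 0.36 ± 0.04 and the phospholipase PLCG1 by 0.25 ± 0.03, and with the trend removed these came to 0.35 for SH2B2, 0.20 for RAPGEF1 and 0.12 for PLCG1. The adaptors GRB10 (0.20), CRK (0.20), CBL (0.13) and GRB2 (0.12) also rose. The 3 that fell were GAB1 (-0.20), FRS2 (-0.12) and PTPN11 (-0.12), and 14 of the list did not pass. SH2B1 (0.23 ± 0.05), of the same family as SH2B2, did not pass with the trend removed (0.05, adjusted p = 0.485).

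Adaptors of p75 had 2 higher and 2 lower of 10 (median -0.09), beside 17.3% and 18.5% of all genes tested. ARHGDIA, a GTPase inhibitor that binds p75, rose by 0.36 ± 0.04 (0.23 with the trend removed). TRAF6, a ubiquitin ligase of p75 and interleukin signalling, fell from 36.2 ± 1.38 to 30.3 ± 0.48 CPM (-0.26 ± 0.05, edgeR adjusted p = 4.50e-04). IRAK1 (0.29 ± 0.11) and BEX3 (-0.13 ± 0.04) also passed, but not with the trend removed (0.12 and -0.08). Without NG replicate 3 neither passed (adjusted p = 0.194 for IRAK1 and 0.0642 for BEX3), and IRAK1 failed without any 1 of the SMG libraries (0.0569 to 0.120), with DESeq2 (0.162) or without a filter (0.0510).

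The Ras and MAP kinase list had 5 higher and 3 lower of 18 (median 0.01), beside 17.3% and 18.5% of all genes tested. MAPK7, the kinase ERK5, which carries neurotrophin signals from axon to nucleus, rose by 0.31 ± 0.06, while its activating kinase MAP2K5 fell from 22.1 ± 0.70 to 17.3 ± 0.99 CPM (-0.36 ± 0.07, edgeR adjusted p = 1.37e-04). MAPK7 was at 0.17 with the trend removed. RPS6KA2, MAP2K2 and HRAS were also higher, by 0.29, 0.23 and 0.22, and MAP2K1 was lower (-0.13). RPS6KA2 was at 0.19 and MAP2K2 at 0.10 with the trend removed. The count of lower genes was 1 with DESeq2, without a filter, under upper quartile and library size scaling, and without NG replicate 1, NG replicate 2 or SMG replicate 2.

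PI3 kinase and AKT genes had 6 higher and 3 lower of 12 (median 0.07), beside 17.3% and 18.5% of all genes tested. With the trend removed 3 were higher. The catalytic subunit PIK3CD rose by 0.36 ± 0.06 (0.22 with the trend removed) and the kinase PDPK1, which activates AKT, by 0.22 ± 0.04 (0.14 with the trend removed). AKT2 was higher by 0.22 ± 0.04, and at 0.07 with the trend removed (adjusted p = 0.0911). FOXO1, a transcription factor that AKT keeps out of the nucleus, fell from 23.8 ± 0.93 to 18.8 ± 1.23 CPM (-0.34 ± 0.07, edgeR adjusted p = 2.34e-04), and PIK3R1 was also lower (-0.09).

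Of JAK and STAT genes, which act downstream of gp130, 1 was higher and 3 were lower of 12 (median -0.05). Among all genes tested 17.3% were higher and 18.5% lower. JAK1, the main kinase bound to gp130, fell from 99.9 ± 2.12 to 89.4 ± 1.65 CPM (-0.16 ± 0.04, edgeR adjusted p = 0.00149). STAT5A, near 1 CPM in SMG, was also lower (-0.54 ± 0.21, edgeR adjusted p = 0.0452). STAT3, at 73.6 ± 3.73 CPM in NG and 75.3 ± 2.01 in SMG, was among the 8 that did not pass (0.03 ± 0.04, edgeR adjusted p = 0.587). JAK2 did not pass either (-0.07, adjusted p = 0.452). TYK2 rose by 0.30 ± 0.06 but did not pass with the trend removed (0.13, adjusted p = 0.0687). The count of higher genes was 2 without NG replicate 2 or without SMG replicate 3.

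Feedback regulators and transcriptional targets of trophic signalling had 7 higher and 7 lower of 19, beside 17.3% and 18.5% of all genes tested. The list's median was 0.19 and its mean -0.24, which differ in sign. The immediate early genes FOS and EGR1, which many other stimuli also induce, had the largest falls of the list, FOS from 13.4 ± 0.71 CPM in NG to 1.67 ± 0.07 in SMG, and EGR1 from 11.4 ± 0.90 CPM in NG to 3.17 ± 0.06 in SMG. SPRY1, a feedback inhibitor of receptor kinases, fell from 6.58 ± 0.10 to 4.27 ± 0.35 CPM (-0.63 ± 0.12), and the cell cycle inhibitor CDKN1A from 48.2 ± 1.36 to 33.2 ± 1.31 CPM (-0.54 ± 0.05). The other SPRY, SPRED and DUSP genes of the list went both ways. SPRY2 (-0.39) and DUSP6 (-0.29) were lower, SPRY4 (0.32), DUSP4 (0.20) and SPRED2 (0.19) were higher, and the rest did not pass. VGF and NPTX1, neuronal genes induced by neurotrophins, were higher, by 0.42 and 0.36 (edgeR adjusted p = 0.0106 and 0.00110). ISL1, which is also a motor neuron marker, was higher by 0.22. ARC, also on the list, did not pass (-0.25, edgeR adjusted p = 0.295). The count of higher genes in this list was 4 with DESeq2.

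**Figure D5:**
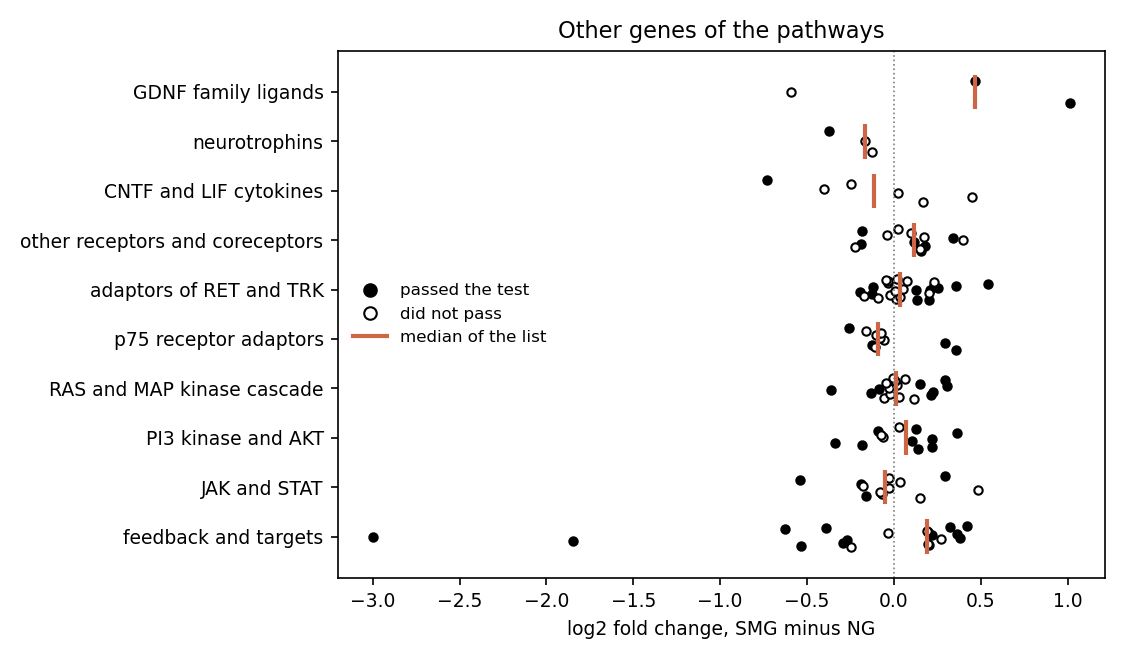
Log2 fold change, SMG minus NG, of each tested gene of the 10 pathway lists; filled points passed edgeR's test, open points did not, and the orange bar is the list's median. Most genes lie within 0.5 of 0 in either direction, and FOS and EGR1 in the list of feedback regulators and targets lie farthest to the left.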

How the data were processed

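Bulk mRNA sequencing libraries, 3 NG and 3 SMG, were analysed from the raw counts the authors deposited, 1 whole number for each Ensembl gene in each library. Per the submitters' processing notes, the tools were HISAT2, SAMtools, featureCounts and DESeq2, with hg19 as the build. Their versions, the annotation, the strand setting and the handling of multiply mapped reads were not given in the sources used here. Groups came from the labels. Symbols came from a table of gene names, with GENCODE 29 added, for 52338 of 57820 genes. GENCODE 29 annotates a later build than hg19 and gave only names, lengths, GC content and exon overlap.

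Weakly counted genes were removed by filterByExpr with default settings, and counts were scaled by TMM and tested with glmQLFit (robust) and glmQLFTest on all 6 libraries, with Benjamini-Hochberg adjustment over 17803 genes and a threshold of 0.05. Total counts of 16329907 to 22685870 gave a median SE of 0.0524 among genes at or above a mean of 10 CPM. Within a group, every pair of libraries differed beyond sampling noise, with 1.53 to 3.11 as chi-square over its degrees of freedom. The alternatives were DESeq2, limma-voom, other scalings and filters, no robust estimation, a replicate block, each library left out, and removal of each library's trend with transcript length and GC content (natural splines as offsets, 17193 genes). The members and gene lists were chosen with earlier results of these data known. All ligands and other receptors that passed the filter could be named; some results are not reported here. From each other list up to 4 genes were named, those with the largest change that passed with a mean of at least 2 CPM. GAB1, FRS2, PTPN11, GRB2, GRB10, CRK, CBL, HRAS, MAP2K1 and PIK3R1 were added after their values were seen, as were the 8 ratios. So were STAT5A, STAT3, JAK2, SPRY2, SPRY4, DUSP4, DUSP6, SPRED2, VGF, NPTX1, ARC and ISL1. The scripts were tested on simulated data. The software was edgeR 4.0.16 with DESeq2 1.42.0 and limma 3.58.1 under R 4.3.3.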

Additional observations from a re-analysis of the deposited data

How the results depend on the processing

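RET, NGFR, NTRK2 and IL6ST kept their direction and passed under every alternative run. Without each library in turn RET ranged from 0.43 to 0.47, NGFR from 0.37 to 0.42, NTRK2 from -0.28 to -0.25 and IL6ST from -0.29 to -0.28. The other members ranged from -0.054 to 0.0026 (GFRA1), 0.07 to 0.23 (GFRA2), 0.21 to 0.54 (GFRA3), 0.01 to 0.15 (NTRK3), 0.032 to 0.14 (CNTFR) and -0.00018 to 0.078 (LIFR), and only CNTFR passed in any of these. CNTFR was at 0.11 without a filter, at -0.0061 with the length and GC trend removed and at -0.0035 with that and the replicate block together. The replicate number could not be shown to pair libraries: same-numbered libraries correlated at 0.0213, 0.0592 and -0.0096 in their deviations from the group means, and NG replicate 3 correlated best with SMG replicate 1. With the replicate block 6333 genes passed, and CNTFR passed (0.10, adjusted p = 0.0472) as well.

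Genes called ranged from 4961 to 6092 without each library. They were 4389 of 14481 with DESeq2 and 5259 of 17193 with the trend removed. The causes of these changes were not tested. Some genes that had not passed turned sign. Without 1 library, BDNF ranged from -0.36 to 0.042, CLCF1 from -0.060 to 0.29 and IL11 from -0.68 to 0.096. With the trend removed, SORCS2 was at -0.10 and RTN4R at -0.032 (-0.10 and -0.023 with the replicate block too). The ratio CNTFR to LIFR was at -0.046 without NG replicate 3, an alternative chosen after seeing the data. Depth limits GFRA2, GFRA3 and most ligands.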
